A study of Mus musculus with 8 samples.

Results

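The cytosolic ribosomal protein genes encode the proteins of the small and large subunits of the ribosome in the cytoplasm. They were taken here as the protein-coding mouse symbols that start with Rps or Rpl followed by a digit, plus Rpsa, Rplp0, Rplp1 and Rplp2, without pseudogenes and without the Rps6k kinases. Of 56748 gene IDs in the count table, 86 matched these symbols and 81 had a mean of at least 1 CPM, the count scaled to a common library total after TMM normalisation. One of the 81, Rps19bp1, encodes a protein that binds a subunit and is no subunit itself, so it is described apart. The other 80 comprised 32 genes of the small subunit and 48 of the large subunit. Just inside the level minimum was Rpl36al, with a mean of 1.36 CPM, and just outside it were Rps27rt at 0.689 CPM and Rpl24 at 0.639 CPM. Rpl3l, at 0.183 CPM, Rpl39l, with 1 count in 1 library, and Rpl10l, at 0 counts in all libraries, also lay below the minimum.

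The study compared livers of miR-93 knockout mice (KO, n = 4 libraries) with livers of wild-type mice (WT, n = 4 libraries). All 8 libraries came from mice on a high fat-high fructose diet, and all carry the label MASLD, metabolic dysfunction-associated steatotic liver disease, and a time of 16 weeks. There was no group on another diet. The sources used here do not give the strain, the sex and age of the mice, the cells in which miR-93 was deleted or whether each library came from a separate animal, so the p-values measure only the spread between these libraries. RNA was sequenced in bulk, so fewer cells of a type and less RNA per cell cannot be told apart.

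A ribosome holds 1 copy of most of its proteins, and its small subunit reads the messenger RNA while its large subunit joins the amino acids. The messages of ribosomal proteins are among the most abundant in the cell and many begin with a short run of pyrimidines, the TOP motif, through which the kinase mTORC1 and the RNA-binding protein Larp1 adjust how much of them is translated. In liver, a tissue that secretes large amounts of plasma protein, hepatocytes hold many ribosomes. A microRNA such as miR-93 pairs through its seed, bases 2 to 8, with the 3′ untranslated regions of messages and lowers their level or their translation.

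The sequence of mature miR-93-5p is shown because it is the molecule that the knockout removes. In RefSeq annotation of GRCm38.p6 it lies at chr5:138165574-138165596 on the minus strand, and the capitals mark the seed.
miR-93-5p: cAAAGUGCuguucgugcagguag
A match of 7 letters to this seed, GCACTTT, occurred in a 3′ untranslated region of 3 of the 80 members (3.75%), against 1687 of 11574 tested genes with an annotated region (14.6%). The regions of the members were short, with a median length of 156 bases, against 1146 bases over the tested genes, so these shares were taken over unequal lengths. The 3 genes were Rps15a, Rps20 and Rpl9. A match in each with 8 flanking bases on each side, all on the minus strand of GRCm38 in the GENCODE annotation, is given to show the letters found, with the match in capitals.
Rps15a, chr7:118108590-118108612: atctgtctGCACTTTgtctccca
Rps20, chr4:3832970-3832992: catgaattGCACTTTgtacatgc
Rpl9, chr5:65390273-65390295: caaaggagGCACTTTcagatatt
The search covered only the longest annotated region of each gene, which for Rps15a had 4728 bases, while its shortest annotated region had 36. A match is a run of letters and does not show that miR-93 binds there.

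The letters around the transcription start are shown for the 4 members with the largest and the 4 with the smallest log2 fold change that have a start in RefSeq annotation of GRCm38.p6. Each window holds 15 bases on either side of the start, and the capitals mark its longest run of C and T.
Rpl4, chr9:64173372-64173401, plus strand: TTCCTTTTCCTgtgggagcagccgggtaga
Rps3a1, chr3:86142654-86142683, minus strand: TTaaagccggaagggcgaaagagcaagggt
Rplp0, chr5:115559452-115559481, plus strand: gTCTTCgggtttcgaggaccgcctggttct
Rps28, chr17:33824548-33824577, minus strand: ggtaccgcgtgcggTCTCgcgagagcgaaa
Rpl38, chr11:114668565-114668594, plus strand: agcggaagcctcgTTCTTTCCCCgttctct
Rpl19, chr11:98026909-98026938, plus strand: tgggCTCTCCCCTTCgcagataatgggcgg
Rpl12, chr2:32961697-32961726, plus strand: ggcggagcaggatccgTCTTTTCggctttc
Rpl14, chr9:120571502-120571531, plus strand: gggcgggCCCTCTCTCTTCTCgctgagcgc
Rpl4, Rps3a1, Rplp0 and Rps28 had the higher fold changes and Rpl38, Rpl19, Rpl12 and Rpl14 the lower ones. A run of at least 8 C or T within 25 bases on either side of the start, on the sense strand, was found in 32 of the 60 members with a RefSeq window (53.3%), against 22.3% of 27025 genes. It was present in 10 of 25 members that were called higher in KO livers and in 22 of 35 that were not called. The letters CTTCCGG, which on either strand fit the core of a site for ETS factors and whose CTTCC may lie in such a run, were found in 25 of the 60 members (41.7%), against 9.93% of all genes, in windows of 250 bases before to 50 after the start. They were present in 8 of 25 called members and 17 of 35 others. The letters TATAAA, read on the sense strand, were found in 6 of the 60 members (10%), against 9.77% of all genes.

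The KO and WT libraries differed in ways that stand beside every result here. KO libraries held 9187279 to 10966019 counts, against 5085860 to 7451026 in WT libraries, and mitochondrially encoded genes took 8.08% to 15.03% of counts in KO libraries, against 25.4%, 35.5%, 27.9% and 77.8% in WT libraries 1 to 4. Each of these measures separated the genotypes with an exact two-sided permutation p of 0.0286, the smallest that 70 assignments allow. WT library 4 stood apart, with 1131446 counts outside the mitochondrial genome and 14287 genes detected, against 18412 to 20148 in the other libraries. A count of 3 in a library corresponded to 0.219 CPM in KO library 3 and 1.69 CPM in WT library 4. The table listed Mir93, the deleted gene, at 0 counts in all 8 libraries, so these counts do not check the genotype labels. Some markers of the other cells of liver differed between the genotypes as well. In the test of all 8 libraries, 10.4% of all tested genes were higher in KO livers and 10.7% lower. For marker lists this short, 1 or 2 called genes say little beside these shares. Of the tested markers, 6 of 10 Kupffer cell and 6 of 9 sinusoidal endothelial genes were higher in KO livers, with summed levels of 166 to 203 and 161 to 305 CPM in KO livers, against 64.0 to 216 and 106 to 204 CPM in WT livers. Without WT library 4 the highest of these WT sums were 81.4 and 129 CPM. Of the B cell markers 6 of 8 were lower in KO livers, with summed levels of 47.9 to 118 CPM, against 91.5 to 593 CPM in WT livers. Of the T cell markers, 2 of 4 tested were lower (3.73 to 5.86 CPM in KO livers, against 6.87 to 12.9 CPM in WT livers), and of the stellate cell markers 2 of 6 were lower (112 to 129 CPM, against 94.7 to 199.6 CPM). Without WT library 4 the highest stellate sum in WT livers was 111.3 CPM, below the lowest in KO livers, 112.4 CPM. In that fit 1 stellate marker was higher and 2 were lower, against 17.8% and 17.5% of all tested genes. Of 2 neutrophil markers tested, 1 was higher (6.39 to 8.55 CPM in KO livers, against 1.64 to 4.498 CPM in WT livers), and Ly6g and Mpo were at 0. Of 4 erythroid markers, 1 was lower (295 to 395 CPM, against 342 to 519 CPM), and the 1 cholangiocyte marker tested, Sox9, was not called. The summed level of the 4 cholangiocyte markers was 6.14 to 12.05 CPM in KO livers, against 3.16 to 4.26 CPM in WT livers, without overlap, and without WT library 4 a further marker, Epcam, was tested and called higher. Hepatocyte markers were abundant in all libraries, with summed levels of 54102 to 60830 CPM in KO livers, against 54554 to 73736 CPM in WT livers, and 2 of 10 were higher and 1 lower. The part of these differences in the results on ribosomal proteins was not tested.

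Messages of cytosolic ribosomal proteins were higher in KO livers across both subunits, and none was called lower. Of the 80 members 79 had enough counts to be tested, and 35 of them were higher in KO livers at an adjusted p under 0.05 (edgeR quasi-likelihood test, Benjamini-Hochberg adjustment over 13204 genes), or 44.3%, against 10.4% of all tested genes. The count of lower members was 0, against 10.7% of all tested genes. At an unadjusted p under 0.05, edgeR gave 55 higher and 0 lower, and the share of all tested genes at that threshold is not given here. DESeq2 called 47 of 79 higher and 0 lower, against 13.7% and 13.4% of all tested genes, and limma-voom 43 higher and 0 lower, against 11.5% and 11.6%. The log2 fold change was above 0 for 78 of 79 members, with Rpl38 as the exception. Its median was 0.56, with an interquartile range of 0.39 to 0.72, against a median of -0.006 over all tested genes. Only Rpl4 and Rps3a1 differed by at least 2-fold, so the increase was moderate and spread over many members. For 54 of the 79 members every KO library lay above every WT library, against 16.3% of all tested genes, and for 0 members every KO library lay below, against 14%. Without WT library 4, 59 of 80 tested members were called higher, against 17.8% of all genes, 0 were called lower, against 17.5%, and the median was 0.41.

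The summed level of the 80 members was 16397, 16147, 16318 and 16217 CPM in KO livers 1 to 4, against 13253, 10469, 12679 and 8655 CPM in WT livers 1 to 4. The 4 KO livers lay close together and above every WT liver, and WT liver 4 was the lowest. The means were 16270 ± 110.3 CPM in KO livers and 11264 ± 2113 CPM in WT livers (SD, n = 4 each), a ratio of 1.46. Without WT library 4 the log2 difference of the sums fell to 0.43, against 0.55 with it. As a plain share of counts outside the mitochondrial genome, the members took 2.27% to 2.43% in KO libraries, against 1.36% to 1.89% in WT libraries.

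**Figure D1:**
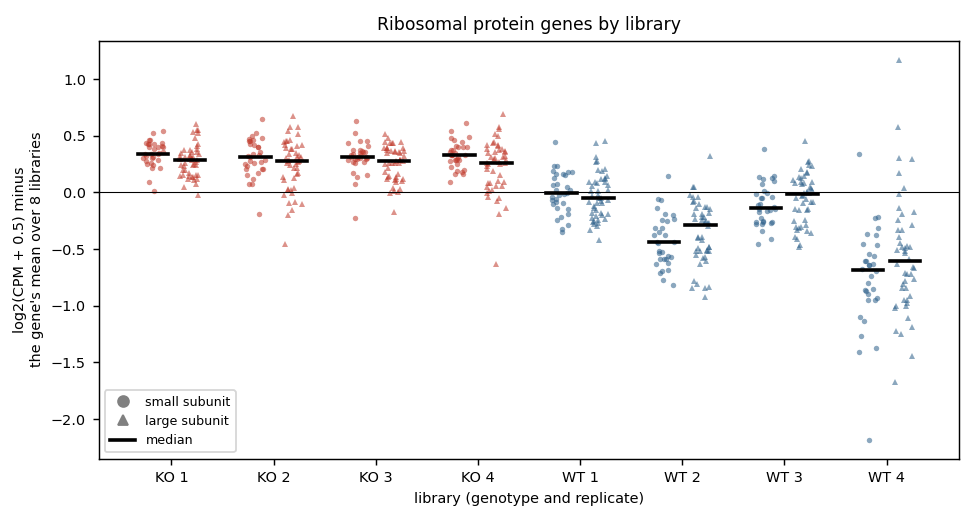
Log2(CPM + 0.5) of each member minus its own mean over the 8 libraries, in each library, with KO libraries left of WT libraries, circles for the small subunit, triangles for the large subunit and black bars for the median of each subunit. The KO medians lie close together above 0, and those of WT libraries 2 and 4 are the lowest.

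Scaling bears on how large the difference is. With DESeq2 size factors 37 of 79 members were called higher and 0 lower, against 10.7% and 10.1% of all genes. When counts were divided by library size alone, 4 of 79 were called higher and 0 lower, against 4.25% and 0.939% of all genes. On that scale the median log2 fold change of all tested genes was 0.54, the median of the members was 1.03 and 77 of 79 members lay above the median of all genes. Library size includes the mitochondrial counts, and with library size outside the mitochondrial genome 37 of 80 members were called higher and 0 lower, against 9.24% and 11.6% of all genes.

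**Figure D2:**
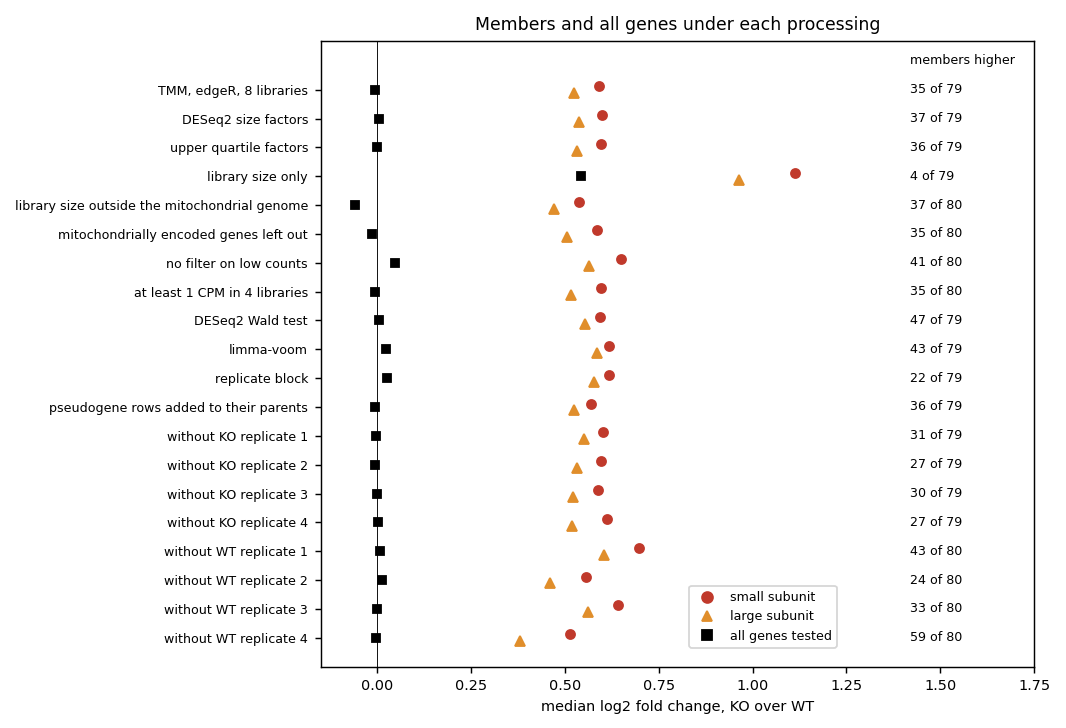
Median log2 fold change of KO over WT livers under each processing setting, with circles for the small subunit, triangles for the large subunit and squares for all genes tested, and the number of members called higher at the right. The medians of both subunits lie to the right of that of all genes in every setting shown, and division by library size alone moves both to the right and leaves 4 of 79 called higher.

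In the small subunit, 18 of 32 members were higher in KO livers, against 10.4% of all tested genes, and 28 of 32 were higher without WT library 4, against 17.8%. The median log2 fold change was 0.59, with a range of 0.11 for Rps2 to 1.11 for Rps3a1 and an SD over members of 0.20. Among the called members were Rps3, Rps3a1, Rps4x, Rps6, Rps9, Rps13, Rps14, Rps16, Rps19, Rps20, Rps23, Rps25, Rps26, Rps27, Rps27a and Rps28. The summed level of the whole subunit was 6565 ± 44.0 CPM in KO livers and 4412 ± 965 CPM in WT livers (SD, n = 4 each), a ratio of 1.52. All 32 had fold changes above 0, and for 26 of 32 the genotypes did not overlap, against 16.3% of all tested genes with KO libraries higher.

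Rps3a1, a small-subunit protein next to the exit of the messenger RNA channel (ENSMUSG00000028081, chromosome 3), had 279, 301, 259 and 294 CPM in KO livers 1 to 4, against 153, 117, 139.6 and 115 CPM in WT livers 1 to 4. Every KO liver lay far above every WT liver. Its log2 fold change was 1.11 ± 0.14 (SE; adjusted p = 0.000352 by edgeR), and 1.06 without WT library 4. Rps28, a small protein of the head of the subunit, had 95.4, 92.3, 107 and 91.0 CPM in KO livers, against 68.5, 40.1, 57.5 and 37.7 CPM in WT livers. WT livers 2 and 4 were the low ones, and the log2 fold change was 0.90 ± 0.19 (SE; adjusted p = 0.00691 by edgeR). Rps4x, encoded on chromosome X, had 138, 159, 136 and 165 CPM in KO livers, against 88.3, 75.2, 89.0 and 90.5 CPM in WT livers. Here WT liver 4 was no lower than the others, and the log2 fold change was 0.81 ± 0.13 (SE; adjusted p = 0.00186 by edgeR). Rps23, which sits at the decoding centre, averaged 205 ± 9.29 CPM in KO livers and 115 ± 35.0 CPM in WT livers (SD, n = 4 each), with a log2 fold change of 0.82. Leaving out WT library 2 ended the call of Rps23 (adjusted p = 0.0541 by edgeR).

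Rps3 and Rps27a have roles beyond the subunit. Rps3, which forms part of the entry of the messenger RNA channel and also has a role in DNA repair, had 198, 198, 186 and 192 CPM in KO livers, against 144, 92.8, 124 and 109 CPM in WT livers. Rps27a, made as a fusion to ubiquitin that is cut off after translation, had 195, 186, 163 and 191 CPM in KO livers, against 119, 116, 129.7 and 95.0 CPM in WT livers. For both genes every KO liver lay above every WT liver, and the log2 fold changes were 0.72 and 0.67 (adjusted p = 0.00726 and 0.00655 by edgeR). Rps6, the subunit protein that S6 kinase phosphorylates downstream of mTORC1, had 128, 167, 157 and 169.9 CPM in KO livers, against 113, 74.4, 90.6 and 103 CPM in WT livers. Its message rose (log2 fold change 0.71 ± 0.16 SE, adjusted p = 0.0112 by edgeR), and KO liver 1 lay nearest to the WT range. Rps19, the gene most often mutated in the human anaemia of Diamond and Blackfan, had 143, 143, 145 and 129 CPM in KO livers, against 103, 83.6, 94.5 and 87.7 CPM in WT livers, with a log2 fold change of 0.60 (adjusted p = 0.00717 by edgeR).

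The 14 small-subunit members that were not called had log2 fold changes of 0.11 to 0.56. Rpsa, also known as the laminin receptor, had 507, 471, 508 and 491 CPM in KO livers, against 407, 323, 386 and 219 CPM in WT livers. The groups did not overlap, yet with a log2 fold change of 0.56 ± 0.18 (SE) its adjusted p was 0.0502 (edgeR). This adjusted p was 0.00115 without WT library 4 and 0.0349 without WT library 1. It was 0.123 without WT library 2 and 0.103 to 0.116 without any 1 of the KO libraries. Rps2, of the entry of the messenger RNA channel, had 433, 451, 452 and 457 CPM in KO livers, against 480.1, 391, 460.0 and 331 CPM in WT livers, and its groups overlapped. Rps18 and Rps15, both of the head of the subunit, each differed by 0.40 on the log2 scale (adjusted p = 0.106 and 0.288 by edgeR), and without WT library 4 Rps18 passed with an adjusted p of 0.0181. Rps10 was barely counted, with 2.89 ± 0.882 CPM in KO livers and 2.47 ± 0.915 CPM in WT livers (SD, n = 4 each). The sources used here do not say where reads with several matches were assigned, and ribosomal protein genes have many near-identical copies. The levels of these genes are uncertain for this reason, among them the low ones of Rps10, Rpl13a, Rpl36al and Rpl24.

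**Figure D3:**
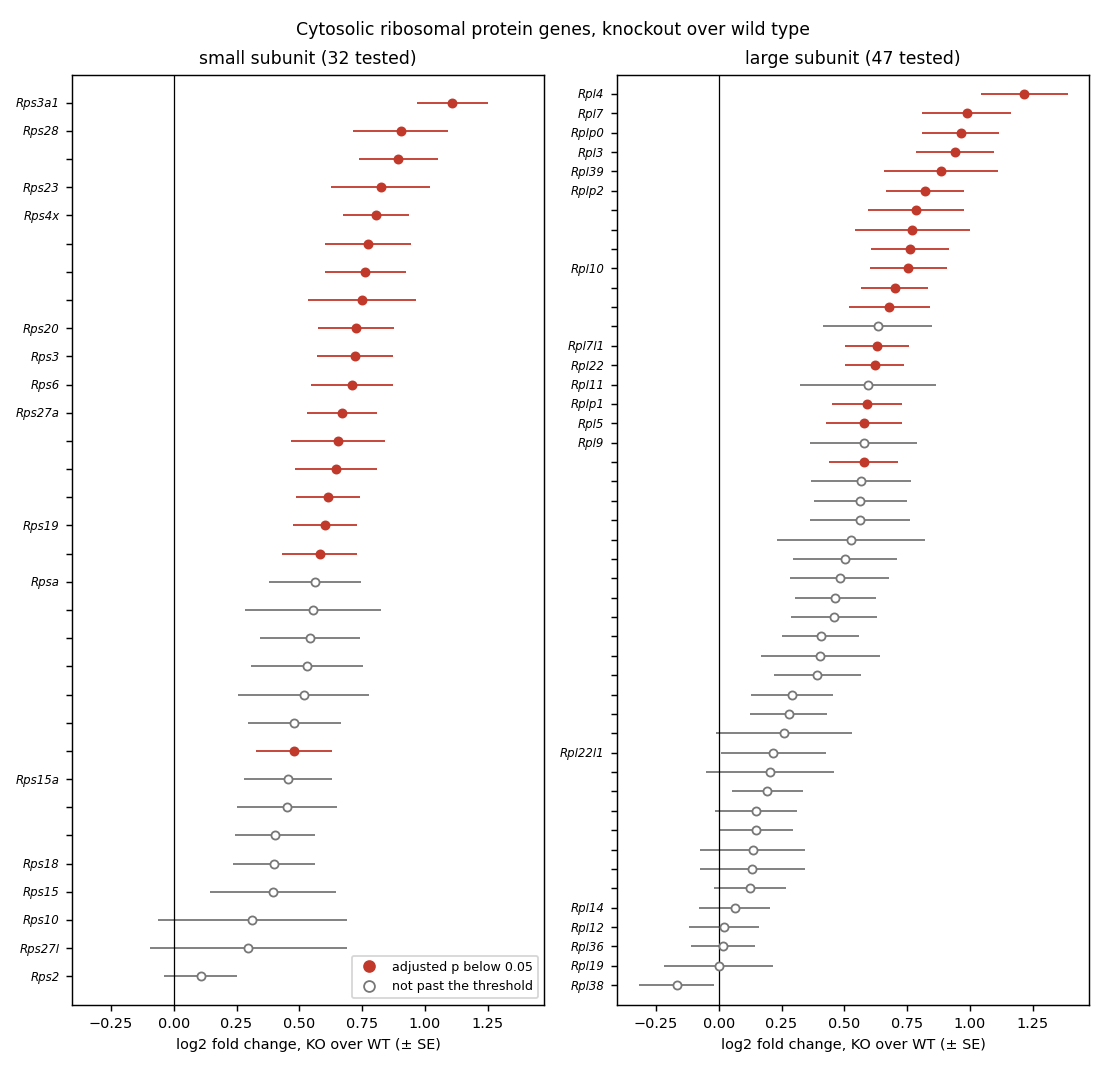
Log2 fold change of KO over WT livers for each tested member, ordered within each subunit, with bars for the standard error, filled points for an adjusted p under 0.05 and names for the members given with values in the text. All small-subunit points lie above 0 and Rpl38 is the only point below it.

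In the large subunit, 17 of 47 tested members were higher in KO livers, against 10.4% of all tested genes, and 31 of 48 were higher without WT library 4, against 17.8%. The median log2 fold change was 0.53, with a range of -0.17 for Rpl38 to 1.22 for Rpl4 and an SD over members of 0.31. The called members were Rpl3, Rpl4, Rpl5, Rpl6, Rpl7, Rpl7l1, Rpl8, Rpl10, Rpl13, Rpl22, Rpl23, Rpl32, Rpl37, Rpl39, Rplp0, Rplp1 and Rplp2. The summed level of the subunit was 9705 ± 68.0 CPM in KO livers and 6852 ± 1153 CPM in WT livers (SD, n = 4 each), a ratio of 1.43. For 28 of the 47 the genotypes did not overlap, with KO libraries higher, against 16.3% of all tested genes.

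Rpl4, with a long loop into the tunnel through which the new protein leaves (ENSMUSG00000032399, chromosome 9), had 459, 481, 431 and 486 CPM in KO livers, against 251, 168, 226 and 153 CPM in WT livers. It had the highest fold change of the members, 1.22 ± 0.17 on the log2 scale (SE; adjusted p = 0.000733 by edgeR), and 1.12 without WT library 4. Rpl3, which reaches towards the peptidyl transferase centre, had 176, 202, 173 and 201 CPM in KO livers, against 101, 77.0, 96.5 and 119.8 CPM in WT livers. WT liver 4 was the highest of the WT livers for this gene, and the groups stayed apart (log2 fold change 0.94 ± 0.16 SE, adjusted p = 0.00186 by edgeR). Rpl7 had 305, 309, 288 and 314 CPM in KO livers, against 191, 142, 172 and 106 CPM in WT livers. Its log2 fold change was 0.99 ± 0.18 (SE; adjusted p = 0.00296 by edgeR). Rpl10, which joins late in the assembly of the subunit, had 584, 656, 618 and 648 CPM in KO livers, against 463, 309, 379 and 334 CPM in WT livers. All KO livers were higher, with a log2 fold change of 0.75 ± 0.15 (SE; adjusted p = 0.00580 by edgeR). Rpl39, a very small protein of the exit tunnel, had 144, 143, 131 and 143 CPM in KO livers, against 94.9, 65.3, 98.5 and 41.6 CPM in WT livers, with a log2 fold change of 0.88 ± 0.23 (SE; adjusted p = 0.0187 by edgeR). Leaving out KO library 2 or 4, or WT library 2, ended this call, with adjusted p-values of 0.0561 to 0.0685.

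The 3 genes of the stalk, which recruits the elongation factors to the ribosome, were all higher. Rplp0, its base, had 302, 334, 306 and 317 CPM in KO livers, against 189, 125, 178 and 154 CPM in WT livers. Rplp1 had 356, 321, 324 and 319.6 CPM in KO livers, against 225, 203, 259 and 188 CPM in WT livers. Rplp2 had 164, 141, 147 and 149.8 CPM in KO livers, against 102, 78.1, 94.1 and 65.2 CPM in WT livers. For all 3 the lowest KO liver lay above the highest WT liver, with log2 fold changes of 0.96, 0.59 and 0.82 (adjusted p = 0.00147, 0.0128 and 0.00412 by edgeR).

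Rpl5 and Rpl11 form a particle with a ribosomal RNA and, when free, bind the p53 ligase Mdm2. Rpl5 had 155, 187, 154 and 190.3 CPM in KO livers, against 116, 97.4, 109 and 139 CPM in WT livers. It was higher by 0.58 ± 0.15 on the log2 scale (SE; adjusted p = 0.0200 by edgeR). Leaving out KO library 2 or 4, or WT library 2 or 3, ended the call of Rpl5, with adjusted p-values of 0.0540 to 0.0743. Rpl11 had 267, 276, 294 and 277 CPM in KO livers, against 225, 186, 243 and 79.3 CPM in WT livers. WT liver 4 was far below the rest, and with it the log2 fold change of 0.59 ± 0.27 (SE) had an adjusted p of 0.140 (edgeR). Without WT library 4 the log2 fold change of Rpl11 was 0.36 and its adjusted p was 0.00540. Mdm2 itself was not called, with a log2 fold change of -0.31 (adjusted p = 0.136 by edgeR), and without WT library 4 it was lower, with -0.39 (adjusted p = 0.00660). Of the 9 genes on the list of ribosome surveillance genes and Mdm2, edgeR called 0 in either direction, against 10.4% higher and 10.7% lower of all tested genes. DESeq2 and limma-voom each called 1 of the 9, in a direction not given here. Of all tested genes, DESeq2 called 13.7% higher and 13.4% lower, and limma-voom 11.5% higher and 11.6% lower. For a list this short, 1 called gene says little beside these shares. At an unadjusted p under 0.05, edgeR gave 0 higher and 2 lower, again without the share of all tested genes. Of these 9 genes 3, Mdm2 among them, were lower and 0 higher without WT library 4, against 17.5% and 17.8% of all tested genes.

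The 30 large-subunit members that were tested and not called had log2 fold changes of -0.17 to 0.63. Rpl38, which in mouse embryos is needed for the translation of particular Hox messages, had 109, 91.8, 106 and 95.9 CPM in KO livers, against 131, 95.4, 128 and 96.2 CPM in WT livers. Its groups overlapped, and its log2 fold change was -0.17 ± 0.15 (SE; adjusted p = 0.458 by edgeR), or 0.35 with library size alone. Rpl19 had 112, 91.7, 104 and 94.8 CPM in KO livers, against 134, 95.1, 113 and 57.4 CPM in WT livers. Its log2 fold change was 0.00 ± 0.22 (SE), and -0.17 without WT library 4. Rpl36, Rpl12 and Rpl14 had log2 fold changes of 0.02, 0.02 and 0.06, with standard errors of 0.13, 0.14 and 0.14.

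**Figure D4:**
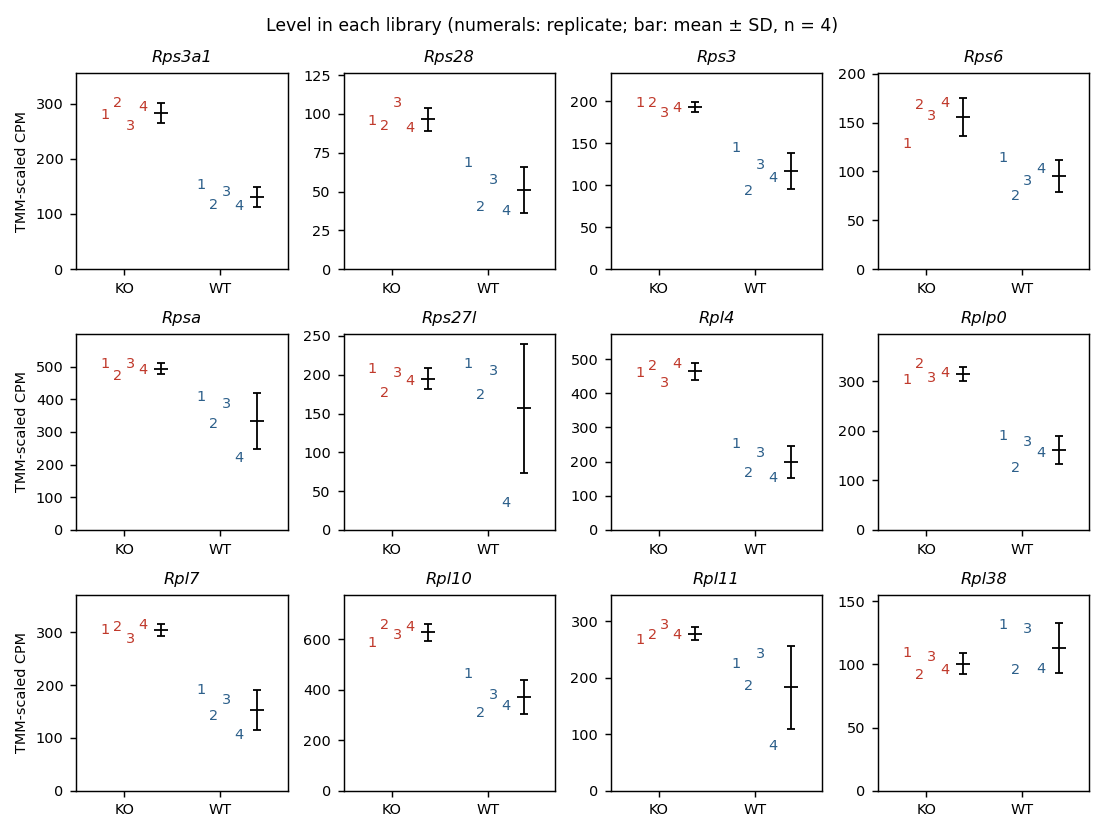
TMM-scaled CPM of 12 members in each library, with KO left of WT in each panel, numerals for the replicate and a bar for the mean and SD (n = 4 each). Replicate 4 of WT stands far below the other WT replicates for Rps27l and Rpl11 and not for Rpl38.

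Members differed in how much their values spread among WT livers. WT liver 4 was the lowest WT liver for 57 of 80 members and WT liver 2 for 21, while WT liver 1 was the highest for 47. The median coefficient of variation was 5.23% over KO livers and 22.4% over WT livers, or 14.4% over WT livers without library 4, and that of WT livers was above that of KO livers for 76 of 80 members. The ratio of the small to the large subunit's summed level was 0.674 to 0.678 in KO livers, against 0.674, 0.655, 0.649 and 0.579 in WT livers 1 to 4. The deviation of WT liver 4 from the other WT livers had a median of -0.49 on the log2 scale and ran in both directions. It was -2.53 for Rps27l, -1.78 for Rpl36a and -1.46 for Rpl11, and 1.503 for Rpl36al, 0.89 for Rpl10a, 0.82 for Rpl41 and 0.80 for Rpl9.

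Levels per kilobase of transcript spanned a wide range among the members. Per kilobase, the highest mean levels over the 8 libraries were 636 CPM for Rps18, 603 for Rpl10, 589 for Rpl36, 549.8 for Rplp1 and 500.4 for Rps27. The lowest were 1.80 CPM per kilobase for Rpl36al, 4.16 for Rps10 and 9.94 for Rpl13a. Over the 79 tested members, the log2 fold change had a Spearman correlation of -0.025 with the log2 mean level and 0.27 with the log2 transcript length, where over 11620 tested genes the second was -0.087. These values describe genes that share the same 8 libraries.

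The fold change differed with the number of pseudogene rows named after the gene. The annotation names 298 pseudogene rows after these members, and pseudogenes listed under other names were not counted. Of the 19 tested members with no such row 13 were higher, with a median log2 fold change of 0.72. Of the 47 with 1 to 8 rows 21 were higher, with a median of 0.53, and of the 13 with 9 to 24 rows only Rps19 was higher, with a median of 0.40. Of all tested genes 10.4% were higher, so the share in the last of these groups was near that of all genes. The Spearman correlation over the 79 members was -0.45. When the counts of the pseudogene rows were added to those of their parents, 36 of 79 members were called higher and 0 lower, against 10.4% and 10.7% of all genes. Counts in those rows equalled only 0.225% to 0.721% of the members' counts in a library, so adding them could change little. Reads assigned to neither kind of row are not reached by this setting.

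**Figure D5:**
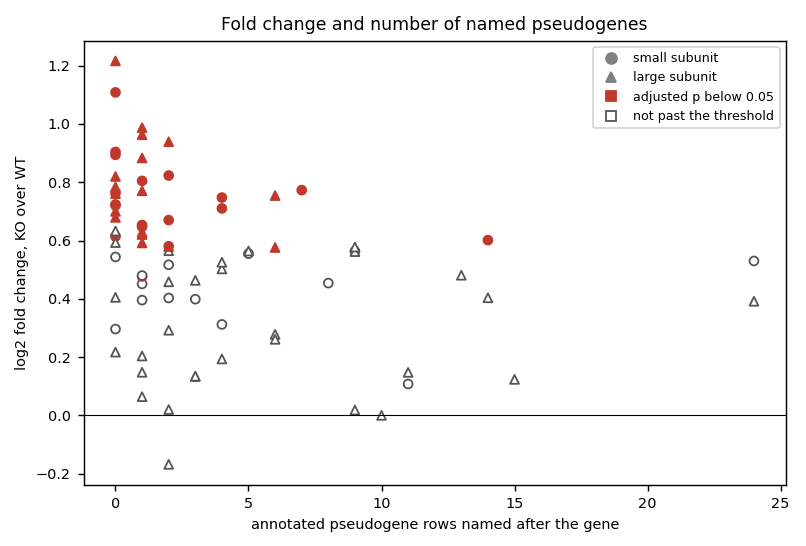
Log2 fold change of KO over WT livers against the number of annotated pseudogene rows named after each of the 79 tested members, with circles for the small subunit, triangles for the large subunit and filled points for an adjusted p under 0.05. Of the members with 9 to 24 rows only Rps19 is filled.

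Some members have a paralogue that can replace them in the ribosome or that is made in particular tissues, and their ratio within a library does not depend on scaling. Rpl22, which in zebrafish has effects on blood formation opposed to those of its paralogue, had 141, 141, 147 and 143 CPM in KO livers, against 100.03, 87.5, 92.8 and 91.1 CPM in WT livers. Rpl22 rose by 0.62 ± 0.12 on the log2 scale (SE; adjusted p = 0.00400 by edgeR). Its paralogue Rpl22l1 had 26.7, 22.2, 22.6 and 21.3 CPM in KO livers, against 18.1, 19.1, 28.4 and 11.2 CPM in WT livers, and the groups overlapped. Counts of Rpl22l1 were 14.9% to 18.9% of those of Rpl22 in KO livers, against 12.3% to 30.6% in WT livers. The log2 ratio differed by -0.29 between the genotypes (exact two-sided permutation p = 0.429, adjusted over 4 pairs 0.571; n = 4 each). Rpl7l1, a relative of Rpl7, had 38.02, 47.1, 45.3 and 42.3 CPM in KO livers, against 28.0, 30.4, 27.6 and 24.7 CPM in WT livers, and it was called higher (log2 fold change 0.63, adjusted p = 0.00573 by edgeR). Its ratio to Rpl7 differed by -0.39 (exact two-sided permutation p = 0.114, adjusted 0.286). Rps27l, which is induced by p53, had 207, 177, 202 and 192 CPM in KO livers, against 214, 174, 205 and 34.3 CPM in WT livers. WT liver 4 alone was low, and the log2 fold change of 0.30 ± 0.39 (SE) became -0.01 without it. The log2 ratio of Rps27l to Rps27 differed by -0.05 between KO and WT livers (exact two-sided permutation p = 0.971), and by -0.61 without WT library 4. Rpl36al lay at 0.984 ± 0.413 CPM in KO livers and 1.74 ± 1.14 CPM in WT livers (SD, n = 4 each) and was too low to be tested; its log2 ratio to Rpl36a differed by -1.45 (exact two-sided permutation p = 0.143, adjusted 0.286), and by -0.62 without WT library 4. The smallest p that 4 against 4 libraries allow is 0.0286.

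Of the 3 members with a seed match, Rps20 rose (log2 fold change 0.72, adjusted p = 0.00683 by edgeR), while Rpl9 and Rps15a were not called, with log2 fold changes of 0.58 and 0.45 (adjusted p = 0.0766 and 0.0856). The other 34 called members had no seed match in their longest annotated region. Rps19bp1, which is no subunit, averaged 14.7 CPM in KO livers and 15.4 CPM in WT livers, with a log2 fold change of -0.13 ± 0.19 (SE; adjusted p = 0.670 by edgeR).

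Other genes of translation were called higher more often than lower. Of 38 elongation, initiation and TOP-message genes, 16 were higher and 1 lower in KO livers, against 10.4% and 10.7% of all tested genes, with a median log2 fold change of 0.48. Eef2, which moves the ribosome along the message, had 709, 879.7, 741 and 848 CPM in KO livers, against 354, 302, 338 and 333 CPM in WT livers. It was higher by 1.26 ± 0.13 on the log2 scale (SE; adjusted p = 0.000102 by edgeR), with no overlap. Eef1a1, which brings aminoacyl transfer RNA to the ribosome, had 1436, 2124, 1614 and 1951 CPM in KO livers, against 967, 670.3, 799 and 1014 CPM in WT livers (log2 fold change 1.05, adjusted p = 0.00246 by edgeR). Rack1, a scaffold on the small subunit, and Eif3b, a subunit of the initiation factor that binds it, had log2 fold changes of 0.69 and 0.78 (adjusted p = 0.00291 and 0.00279 by edgeR). Eif5b, which helps to join the subunits, was the 1 lower gene, with 54.1 to 75.1 CPM in KO livers, against 135, 145, 118 and 414 CPM in WT livers (log2 fold change -1.60, adjusted p = 0.0104 by edgeR), and without WT library 4 its log2 fold change was -0.99. Fau, a ribosomal protein fusion whose symbol lies outside the rule, was not called, with a log2 change of 0.49 (adjusted p = 0.0550 by edgeR). Without WT library 4, 28 of this list were higher and 1 lower, against 17.8% and 17.5% of all tested genes.

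Of 41 ribosome biogenesis genes 3 were higher and 7 lower in KO livers, against 10.4% and 10.7% of all tested genes, with a median log2 fold change of -0.16. Nop56, a core protein of the particles that methylate ribosomal RNA, had 20.8 to 23.7 CPM in KO livers, against 43.2, 56.9, 51.6 and 179.9 CPM in WT livers (log2 fold change -1.85 ± 0.39 SE, adjusted p = 0.00761 by edgeR). WT liver 4 was far above the others, and without it the log2 fold change of Nop56 was -1.18. Gnl3, the nucleolar GTPase also called nucleostemin, was lower by -0.64 on the log2 scale (adjusted p = 0.00579), and Nop16 and Nop10 were higher by 0.64 and 0.71 (adjusted p = 0.00851 and 0.00961 by edgeR). Myc, a transcription factor that raises ribosome production in many cells, had 2.44 to 4.15 CPM in KO livers, against 4.70 to 9.90 CPM in WT livers (log2 fold change -1.25, adjusted p = 0.0106 by edgeR). Of 27 tested genes of mTORC1 and its control of TOP messages, 3 were higher and 1 lower, with a median of -0.14, so the share called higher was near the 10.4% of all tested genes and the share called lower was below their 10.7%. Those higher were Eif4ebp1, which blocks initiation when mTORC1 is inactive (0.84), and Lamtor1 (0.72) and Rraga (0.70), which place mTORC1 on the lysosome. The lower one was Akt1s1, an inhibitor of mTORC1 (-0.54).

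The ribosomal proteins of mitochondria are encoded by separate nuclear genes. Of 77 tested, 17 were higher and 1 lower in KO livers, against 10.4% and 10.7% of all tested genes. Their median log2 fold change was 0.17, beside 0.56 over the cytosolic members. Mrpl44, Mrps12 and Mrps16 were higher, with log2 fold changes of 1.25, 0.92 and 0.71 (adjusted p = 0.00468, 0.00353 and 0.00521 by edgeR). Mrpl18 was lower, with 55.7 to 67.1 CPM in KO livers, against 118, 163, 127 and 294 CPM in WT livers (log2 fold change -1.48, adjusted p = 0.00279 by edgeR). Without WT library 4, the mitochondrial list had 23 higher and 2 lower, the biogenesis list 5 higher and 8 lower, and the mTORC1 list 5 higher and 3 lower, where 17.8% of all tested genes were higher and 17.5% lower. With library size alone 3 genes of the elongation, initiation and TOP list and 1 of the mitochondrial list were higher, against 4.25% of all tested genes. On that scale 0 genes of these 4 lists were lower, against 0.939%, so these counts say little about the lists. The differences between these lists and the members were not tested.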

How the data were processed

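Total RNA of mouse liver was sequenced in bulk, and the authors deposited 1 table of raw counts per Ensembl gene ID for the 8 libraries. Per the submitters' processing notes, cutadapt 4.2, STAR 2.7.10a and the build mm39 were used, and the counting tool, its handling of strand and of reads with several matches are not given in the sources used here. Symbols, lengths and 3′ regions came from GENCODE M21, which matched 52125 of 56748 IDs, and start windows from RefSeq, both on GRCm38, so no coordinate was taken from the counts' own build. Genes were kept by filterByExpr, scaled by TMM and tested with edgeR 4.0.16 (robust quasi-likelihood, R 4.3.3), KO against WT, with no covariate, over all 13204 genes kept, and p-values were adjusted by Benjamini and Hochberg with a threshold of 0.05. CPM values are counts over the TMM-scaled total of the genes kept, brought to the usual CPM scale. The fit was tested on simulated data. The standard error of a log2 fold change was its absolute value divided by the square root of the edgeR F statistic. Paralogue ratios used 0.5 added counts. Lengths are medians over protein-coding transcripts. Alternatives were other scalings and filters, DESeq2 1.42.0, limma-voom 3.58.1, a replicate block, pseudogene counts added and each library left out. Named genes were 13 chosen for their roles, the paralogues and the 5 largest and 5 smallest fold changes of each subunit. From each other list up to 4 called genes of smallest p were named. Further members are named in lists of calls or as extremes of WT library 4 after their values were seen. Eif5b, Fau, Myc and Mdm2 are named outside this rule. The members and lists were chosen with earlier results of these data known. Depth limits WT library 4 most, and the floors given cover counting error only. Some items that the rule for named genes takes are not reported here.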

Additional observations from a re-analysis of the deposited data

Results flagged for a closer look

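In 5 of 74 groups of 4 libraries 1 library lay far from the other 3, past the 95% critical value of Dixon's test, where chance gives about 1 in 20. Rps19 had 129 CPM in KO library 4, below the 143 to 145 CPM of the other KO libraries. Rplp1 had 356 CPM in KO library 1, above 319.6 to 324 CPM in the others. Rpl39 had 131 CPM in KO library 3, below 143 to 144 CPM in the others. Rps18 had 212 CPM in WT library 4, below 317 to 338 CPM in the other WT libraries. Rps4x had 75.2 CPM in WT library 2, below 88.3 to 90.5 CPM in the others.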

How the results depend on the processing

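No setting called a member lower. Leaving out 1 library at a time gave 24 to 59 members higher (12 to 28 of the small subunit, 12 to 31 of the large), against 5.77% to 17.8% of all genes. The 59, 28 and 31 came without WT library 4, where 17.8% of all genes were higher. The 24 came without WT library 2, where 6.27% were higher. Library size alone gave 4 higher (against 4.25% of all genes), 1 small and 3 large, and ended the calls of 17 named members. Rpl3, Rpl4 and Rps3a1 were called under every setting run, and 24 members in the main test and without each single library. The shares of all genes called as steadily are not given here. The sources used here do not say whether replicate numbers pair the libraries. Correlations between libraries with the same number were -0.19 to -0.03, and so few values do not settle it. With a replicate block 22 members were higher (against 4.87% of all genes), 9 of them small, and all 22 were among the 35. Of the named members it ended the calls of Rps6, Rps19, Rps27a, Rplp1 and Rpl5, whose log2 fold changes under the block were 0.72, 0.61, 0.68, 0.60 and 0.58.

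The sign of members near 0 changed: Rpl38 to 0.35 with library size alone; Rpl19, Rpl36 and Rpl12 to -0.044, -0.042 and -0.034 with library size outside the mitochondrial genome; and Rpl19 to -0.0069 with mitochondrial genes left out and -0.0023 with pseudogene counts added. With 1 library left out, log2 fold changes ran from -0.17 to 0.18 for Rpl19, -0.021 to 0.077 for Rpl36, -0.040 to 0.10 for Rpl12, -0.013 to 0.48 for Rps27l and -0.012 to 0.12 for Rpl14, and the log2 ratio of Rps27l to Rps27 from -0.61 to 0.18. The causes were not tested. Depth limits WT library 4 most, where 3 counts are 1.69 CPM.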
